A study of Homo sapiens with 24 samples.

Results

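Gene expression was compared between 2 B-cell lymphoma lines kept in solvent, SU-DHL-4 and DG-75. The members were the 3 SU-DHL-4 arrays and the 3 DG-75 arrays labelled DMSO, 6 of the 24 arrays of the series, and the labels alone chose them. SU-DHL-4 is an established line of diffuse large B-cell lymphoma (DLBCL), classed in the study's methods as germinal centre B-cell-like, and DG-75 is an established line of Burkitt lymphoma (BL). Both lines grew in RPMI medium with fetal bovine serum and antibiotics, and both had DMSO without any inhibitor for 72 h. The remaining arrays held the same lines under 1 µM Entospletinib (Ento), an inhibitor of the kinase SYK, under 0.01 µM AZD5153 (AZD), an inhibitor of BET proteins, or under both (Ento+AZD), with 3 arrays a group. Each lymphoma type is represented by 1 line, so a difference between the lines and a difference between DLBCL and BL cannot be told apart.

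Both lymphomas derive from B cells of the germinal centre, the structure in lymph nodes where B cells divide quickly, mutate their antibody genes and are selected by the strength of their B-cell receptor. BL is driven by a translocation that places the MYC gene under antibody gene control, and mutations of ID3, TCF3 and CCND3 are common in it. Germinal centre-type DLBCL more often carries a translocation of BCL2, which blocks cell death, and lesions of genes that modify chromatin. The receptor for antigen signals through SYK and SRC family kinases, and its surface partners, such as CD20 and CD22, are the targets of antibody drugs.

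Each array gave 25575 log2 values made by the authors with robust multi-array average (RMA) normalization, for 25161 gene symbols. Array medians lay between 5.05 and 5.14. Across genes the SU-DHL-4 arrays correlated with one another at 0.990 to 0.991, the DG-75 arrays at 0.986 to 0.992, and arrays of different lines at 0.952 to 0.958. The median SD of a gene over 3 arrays was 0.18 for the SU-DHL-4 arrays and 0.19 for those of DG-75. The mean level of the 15 B lineage markers was 9.79 to 10.14 in SU-DHL-4 and 8.78 to 8.98 in DG-75. The markers of T cells, NK cells and myeloid cells, 28 genes in all, gave 0 calls by limma under the rule defined next, with 2 at an unadjusted p under 0.05, and the mean of each list lay between 3.72 and 4.57 on every array. Probes differ in affinity, so these levels do not order the expression of different genes and do not show that a cell type was absent. Without SU-DHL-4 replicate 1 or DG-75 replicate 2, 1 T cell marker was called. Detection values were not used here, so genes with low log2 values may be at background, and the number of arrays limits the precision.

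The first question was how far the lines differ with no inhibitor present. Differences are given on the log2 scale as SU-DHL-4 minus DG-75, and a gene was called at a limma adjusted p under 0.05 with an absolute difference above 1, which is a 2-fold difference. By this rule 1853 of 25575 rows were called, a percentage of 7.25, with 798 rows (3.12%) higher in SU-DHL-4 and 1055 rows (4.13%) lower. An adjusted p under 0.05 alone was reached by 4278 rows (16.7%). The median difference over all rows was 0.01 and the median absolute difference 0.22. Differences beyond 4, a 16-fold change, were found for 47 called rows higher in SU-DHL-4 and 67 lower, and beyond 6 for 6 and 11 rows. All 3 arrays of SU-DHL-4 lay above all 3 of DG-75 for 4113 rows (16.1%) and below them for 4405 rows (17.2%). Of the 1853 called rows, 1847 were separated in this way, so separated arrays of a called gene are a description and no further support. Protein-coding genes were called at 8.49%, long non-coding RNAs at 3.44% and small nucleolar RNAs at 13.5%. Counts of called members in the gene lists below are to be read against the shares of all rows, 3.12% higher and 4.13% lower.

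**Figure D1:**
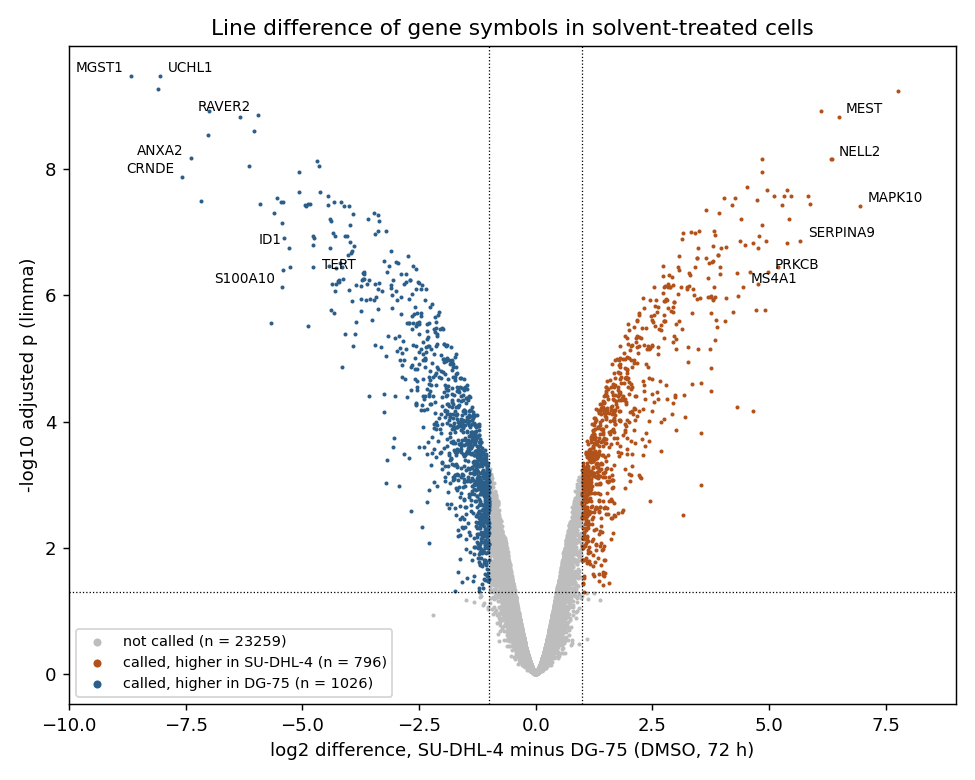
Each point is 1 gene symbol, with the log2 difference between SU-DHL-4 and DG-75 under DMSO on the horizontal axis and -log10 of the limma adjusted p on the vertical axis. Dotted lines mark differences of 1 in either direction and an adjusted p of 0.05. Y-linked genes and XIST are left out. Points lie beyond 6 on both sides, among them MGST1 at -8.68 and MAPK10 at 6.96.

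The genes most elevated in SU-DHL-4 were a mixed group of enzymes, channels, signalling regulators and germinal centre genes, most of them below the array medians in DG-75. MAPK10, which encodes the stress kinase JNK3 best known from neurons, was at 9.73, 9.81 and 9.63 in SU-DHL-4 and at 2.62, 2.15 and 3.53 in DG-75. Its difference was 6.96 with an SE of 0.28. MEST, an imprinted gene, was at 9.50, 9.78 and 9.73 against 3.30, 2.92 and 3.29, a difference of 6.50. Genes of this group were chosen by size and for arrays that did not overlap, so the separation is a description. NELL2, a secreted glycoprotein, differed by 6.35, GTSF1, a gametocyte-specific factor of germline transposon silencing, by 6.33, and KYNU, kynureninase of tryptophan breakdown, by 6.12. KCNMB2, a subunit of calcium-activated potassium channels, differed by 5.87, and SLC1A1, a glutamate transporter, by 5.83. The other genes among the 15 leading ones were SERPINA9, MUC19, RGCC, CLVS1, RGS18, CYBB, GPR18 and MYO1E, with differences from 5.12 to 5.68. CYBB, the membrane subunit of NADPH oxidase, was at 9.84, 10.31 and 9.43 in SU-DHL-4 and at 4.47, 4.74 and 4.51 in DG-75. One long non-coding RNA outside the naming rule, LINC00487, had the largest difference in this direction, 7.76, and was named after its value was seen.

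The 15 leading genes of the other direction were again mixed in function. MGST1, a membrane-bound glutathione transferase, was at 10.73, 10.46 and 10.53 in DG-75 and at 1.92, 1.66 and 2.10 in SU-DHL-4, a difference of -8.68 with an SE of 0.16. MAP1B, a microtubule-binding protein of neurons, differed by -8.11. UCHL1, a deubiquitinase abundant in neurons and found in germinal centre B cells, was at 11.87, 11.64 and 11.84 in DG-75 and at 3.86, 3.80 and 3.55 in SU-DHL-4, a difference of -8.05. In SU-DHL-4 all 3 genes lay below the array medians. Where the values of a line may be at background, as here, the size of the difference depends on that floor, and sizes were not compared between the directions. CRNDE, a long non-coding RNA, differed by -7.59, ZNF385B, a zinc finger gene, by -7.18 and BEST3, a chloride channel of the bestrophin family, by -7.02. NRG4, a ligand of the receptor ERBB4, differed by -6.33, PRKAR2B, a regulatory subunit of protein kinase A, by -6.15 and the deubiquitinase USP44 by -6.05. RAVER2, ANXA2P2, SPATS2L, ASS1 and APBB2 completed the 15, with differences from -5.55 to -5.94. ASS1, the enzyme that makes argininosuccinate and lets cells form their own arginine, was at 10.16, 10.40 and 9.50 in DG-75 and at 4.30, 4.72 and 4.19 in SU-DHL-4. The small nucleolar RNA SNORD116-2, outside the naming rule and named after its value was seen, differed by -6.99, and its near-identical copies cannot be told apart on the array with certainty.

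**Figure D2:**
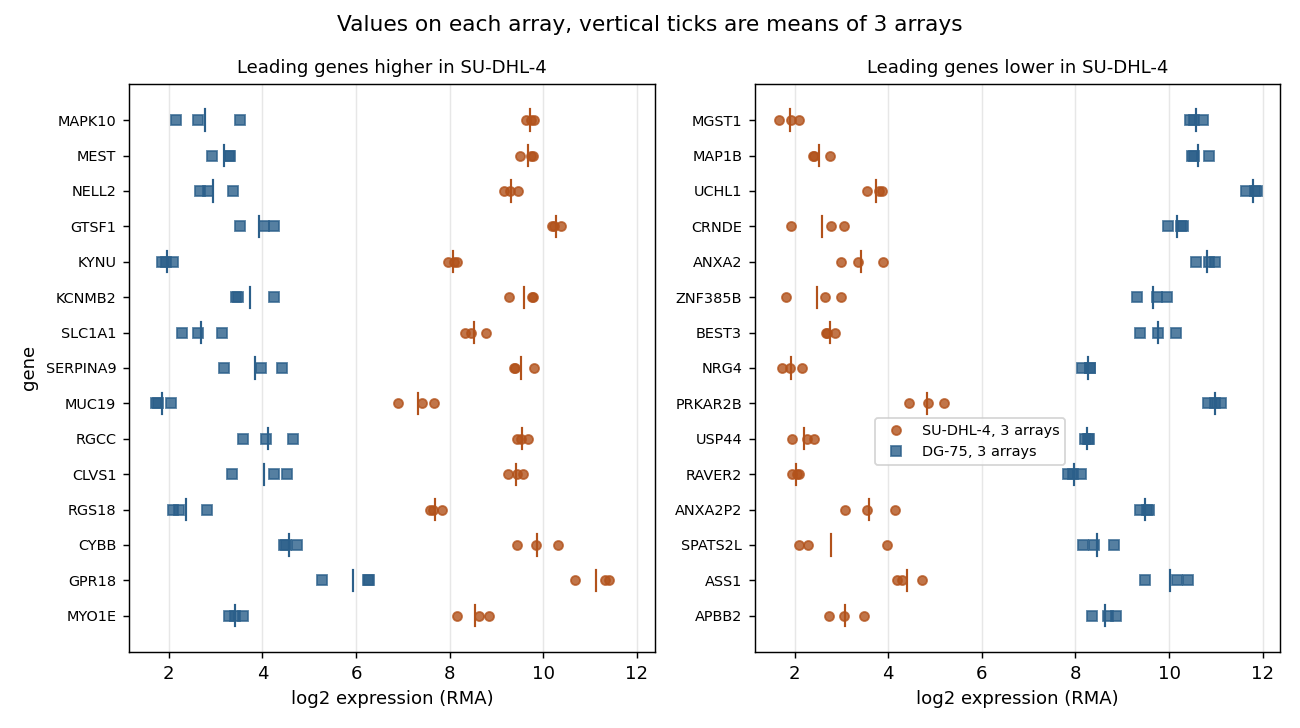
Log2 expression on each of the 6 arrays for the 15 leading genes of each direction, with circles for SU-DHL-4, squares for DG-75 and vertical ticks for the means of 3 arrays. The genes were chosen for arrays that do not overlap. SPATS2L shows a wide scatter in SU-DHL-4, from 2.09 to 3.98.

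Annexin A2 and its binding partner were both elevated in DG-75. ANXA2, a calcium-dependent membrane-binding protein, was at 10.98, 10.86 and 10.57 in DG-75 and at 2.98, 3.88 and 3.36 in SU-DHL-4. Its difference was -7.39 with a limma adjusted p of 6.74e-09. ANXA2P2, a pseudogene with nearly the same sequence, differed by -5.90, and the probes of the pair may share signal. S100A10, which forms a complex with annexin A2, was at 10.10, 9.99 and 9.67 in DG-75 and at 4.05, 3.96 and 5.44 in SU-DHL-4, a difference of -5.44. S100A11 differed by -4.36. Of the 18 S100 genes measured, these 2 were called lower in SU-DHL-4 and 2 were called higher, S100A13 by 2.42 and S100Z by 1.39, while the median of the family was -0.01. The 14 other S100 genes lay between -0.38 and 0.44.

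Reference promoters are shown for 3 genes elevated in DG-75, as examples of many CpG, and for a pair elevated in SU-DHL-4 that hold a B-cell motif. They were chosen after their values and sequences were seen and do not stand for all leading genes. Sequences are from RefSeq with build GRCh38.p14, not from the lines themselves, and cover the 250 bases before the gene start on the gene's own strand. The capitals mark CpG dinucleotides in the first 3 sequences, those of genes elevated in DG-75. UCHL1 lies on the plus strand at chr4:41256678-41256927, ANXA2 on the minus strand at chr15:60397987-60398236 and S100A10 on the minus strand at chr1:151993860-151994109.
UCHL1: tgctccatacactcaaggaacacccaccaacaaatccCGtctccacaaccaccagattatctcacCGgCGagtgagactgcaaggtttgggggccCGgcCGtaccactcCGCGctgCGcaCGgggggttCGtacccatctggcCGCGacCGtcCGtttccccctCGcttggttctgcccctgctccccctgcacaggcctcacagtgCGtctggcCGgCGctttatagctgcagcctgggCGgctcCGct
ANXA2: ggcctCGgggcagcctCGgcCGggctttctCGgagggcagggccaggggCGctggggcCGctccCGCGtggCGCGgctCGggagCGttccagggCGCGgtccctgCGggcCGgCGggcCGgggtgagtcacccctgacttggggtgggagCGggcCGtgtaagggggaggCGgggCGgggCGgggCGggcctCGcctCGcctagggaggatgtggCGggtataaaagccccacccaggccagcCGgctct
S100A10: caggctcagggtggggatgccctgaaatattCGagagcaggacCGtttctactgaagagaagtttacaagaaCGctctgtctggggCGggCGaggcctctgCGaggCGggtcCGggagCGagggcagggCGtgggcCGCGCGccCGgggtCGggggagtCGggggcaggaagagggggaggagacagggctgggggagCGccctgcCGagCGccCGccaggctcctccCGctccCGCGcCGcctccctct
They held 20, 28 and 24 CpG. The capitals of the next pair, from genes elevated in SU-DHL-4, mark the octamer ATGCAAAT or its reverse complement ATTTGCAT, the site that OCT proteins bind in antibody gene promoters. SERPINA9 lies on the minus strand at chr14:94476198-94476447 and VPREB3 on the minus strand at chr22:23754426-23754675.
SERPINA9: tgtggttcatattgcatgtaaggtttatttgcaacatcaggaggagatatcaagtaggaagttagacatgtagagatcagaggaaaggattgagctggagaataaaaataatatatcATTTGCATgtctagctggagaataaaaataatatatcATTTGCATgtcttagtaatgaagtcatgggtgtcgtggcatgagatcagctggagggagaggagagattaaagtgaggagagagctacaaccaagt
VPREB3: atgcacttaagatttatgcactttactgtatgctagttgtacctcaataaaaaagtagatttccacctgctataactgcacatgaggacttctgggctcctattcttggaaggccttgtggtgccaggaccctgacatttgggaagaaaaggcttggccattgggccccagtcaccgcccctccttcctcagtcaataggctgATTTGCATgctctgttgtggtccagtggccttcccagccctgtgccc
Each held 1 CpG. In SERPINA9 the octamer was found 2 times, starting 133 and 96 bases before the gene start, and in VPREB3 1 time, starting 47 bases before it.

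Promoters were available for 17249 measured symbols, with 1 start taken for each. Of these symbols, 4111 had several listed starts, and the first listed need not be the one used in these cells. The median number of CpG in 250 bases was 16 over all promoters. It was 17 for the 596 genes called higher in SU-DHL-4 and 21 for the 766 called lower. At least 10 CpG were found in 65.4% of all promoters, in 63.6% of those higher in SU-DHL-4 and in 80.4% of those lower. The share was above that of all promoters for genes elevated in DG-75 and near it for genes elevated in SU-DHL-4, which is a description without a test. Among the 15 leading genes of each direction, 3 of 13 with a promoter had at least 10 CpG on the SU-DHL-4 side, with GPR18 at 0, CYBB at 1, SLC1A1 at 24 and RGCC at 34, and 11 of 12 on the DG-75 side, with NRG4 at 5. The octamer, searched on both strands, was in 1.6% of all promoters, in 2.01% of those higher in SU-DHL-4, which is 12 genes, and in 0.783% of those lower, which is 6 genes. Of the 12, SERPINA9, VPREB3, PRKCB and TLR9 are named because they belong to the gene lists. Their names do not tie the octamer to B-cell genes. Promoter sequence and expression are set side by side here, and methylation was not measured.

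**Figure D3:**
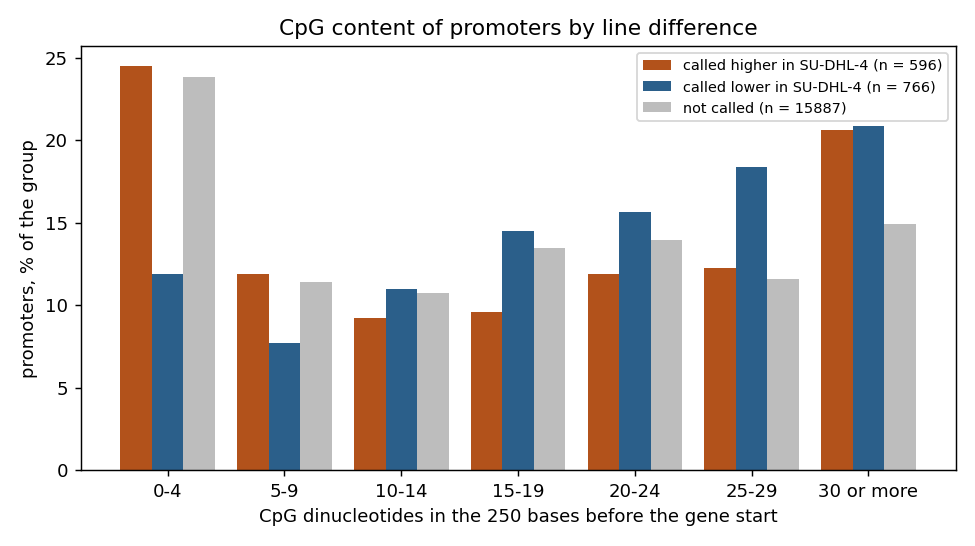
Bars give the percentage of promoters in each class of CpG number within 250 bases before the gene start, for genes called higher in SU-DHL-4, called lower in SU-DHL-4 and not called. The class of 0 to 4 CpG holds 11.9% of the genes lower in SU-DHL-4, against 24.5% of those higher and 23.9% of those not called.

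B lineage genes were called in 1 direction. Of 15 markers measured, 7 were called higher in SU-DHL-4 and 0 lower, with a median difference of 0.90 against 0.01 over all rows. The largest was MS4A1, which encodes CD20, the target of rituximab. It was at 11.63, 11.83 and 11.27 in SU-DHL-4 and at 7.20, 6.49 and 7.69 in DG-75, a difference of 4.45 with an SE of 0.27. EBF1, a transcription factor that commits cells to the B lineage, differed by 2.03, and CD72, an inhibitory coreceptor, by 1.78. CD22, also an inhibitory coreceptor, differed by 1.29, the SRC family kinase BLK by 1.27 and the receptor subunit CD79B by 1.16. CD37, a tetraspanin, differed by 1.09, and by 0.97 without DG-75 replicate 3, which ended its call. CD79A (0.77, limma adjusted p = 0.00516) passed the adjusted p but not the fold minimum. PAX5, the factor that keeps B cell identity, was at 8.24, 8.59 and 8.22 in SU-DHL-4 and at 8.03, 8.03 and 8.07 in DG-75, a difference of 0.31 with a limma adjusted p of 0.226. POU2AF1, the coactivator of OCT factors, differed by 0.29 with an adjusted p of 0.361.

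Antigens that antibody drugs bind moved in both directions. Of 18 measured, 6 were called higher in SU-DHL-4 and 2 lower. Beside MS4A1, CD22, CD79B and CD37, the costimulatory molecules CD86 and CD40 were higher, by 1.56 and 1.46. CD80, like CD86 a ligand of CD28 on T cells, went the other way, at 7.0, 7.33 and 7.01 in DG-75 and at 4.14, 4.42 and 5.18 in SU-DHL-4, a difference of -2.53. CD70, the ligand of CD27, was lower in SU-DHL-4 with a difference of -2.16, while its receptor CD27 was higher by 2.49. For CD27 the arrays read 10.49, 10.44 and 10.37 in SU-DHL-4 against 8.05, 7.59 and 8.19 in DG-75. In the wider list of 31 TNF receptor and ligand genes, 2 were called higher, CD27 and CD40, and 4 lower. The lower ones were CD70, the death receptor FAS with a difference of -2.03, TNFRSF1A, the receptor of TNF, with -1.5 and TRAF3, a brake on NF-kB signalling, with -1.19.

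The antibody genes themselves could be followed in part, since 6 of 19 listed had a row. VPREB3, a protein that binds newly made antibody heavy chains, was at 10.84, 10.91 and 10.55 in SU-DHL-4 and at 7.99, 6.95 and 8.38 in DG-75, a difference of 2.99. IGHG3, an IgG constant region gene with close copies, differed by 2.10. IGLL5, next to the lambda light chain genes, differed by -1.62, with differences of -0.33 to -0.84 on the arrays with inhibitors. JCHAIN, the joining chain of secreted IgM and IgA, was high in both lines, at 11.93 and 11.68 on average. Near-identical constant regions and rearranged variable genes make array values of this family uncertain.

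The germinal centre list was also called in 1 direction, with 6 of 20 genes higher in SU-DHL-4, 0 lower and a median of 0.53. SERPINA9, a serpin made almost only by germinal centre B cells, was at 9.39, 9.81 and 9.38 in SU-DHL-4 and at 3.97, 3.17 and 4.41 in DG-75. Its difference was 5.68 with a limma adjusted p of 1.37e-07. DENND3, an exchange factor of RAB proteins, differed by 2.32, the DNA glycosylase NEIL1 by 1.82, the receptor adaptor STAP1 by 1.5, RGS13, which damps chemokine receptors, by 1.44 and the elongation factor ELL3 by 1.11. BCL6, MME and LMO2, also markers of germinal centre origin, were not called. BCL6, its master repressor, was at 11.75 and 11.38 (difference 0.38, limma adjusted p = 0.153). MME, which encodes CD10, was at 8.15 and 8.62 (difference -0.47, limma adjusted p = 0.0406). LMO2 was at 6.68 and 6.08 with an adjusted p of 0.28.

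Genes of activated B cells and of plasma cells were split. XBP1, a driver of the secretory programme, was at 7.43, 7.43 and 7.15 in DG-75 and at 5.38, 4.98 and 4.43 in SU-DHL-4, a difference of -2.41. IRF4, which ends the germinal centre state, was at 7.51, 8.24 and 7.24 against 5.45, 5.55 and 5.27, a difference of -2.24. Both genes were thus higher on every DG-75 array. PRDM1, which encodes the plasma cell factor BLIMP1, was low in both lines, at 2.55 and 2.83, with an adjusted p of 0.495. Of 18 activated B-cell genes, 3 were called higher in SU-DHL-4 and 3 lower, with a median of 0.05. The higher count was 1 without SU-DHL-4 replicate 3 or DG-75 replicate 1, and without DG-75 replicate 3 the list had 2 calls higher and 5 lower. ENTPD1, the ectonucleotidase CD39, was the largest of those higher, at 2.94, and the cyclin gene CCND2 was at 1.00. LIMD1 differed by -1.25. The kinase gene PIM1 differed by 1.36, at 6.87, 6.65 and 7.66 in SU-DHL-4 and at 5.05, 6.60 and 5.47 in DG-75, and its limma adjusted p rose to 0.0591 to 0.104 when SU-DHL-4 replicate 1 or 3 or DG-75 replicate 1 or 3 was left out. MZB1, a chaperone of antibody secretion, went against XBP1 and IRF4, with a difference of 1.21, and of 0.96 without DG-75 replicate 3.

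**Figure D4:**
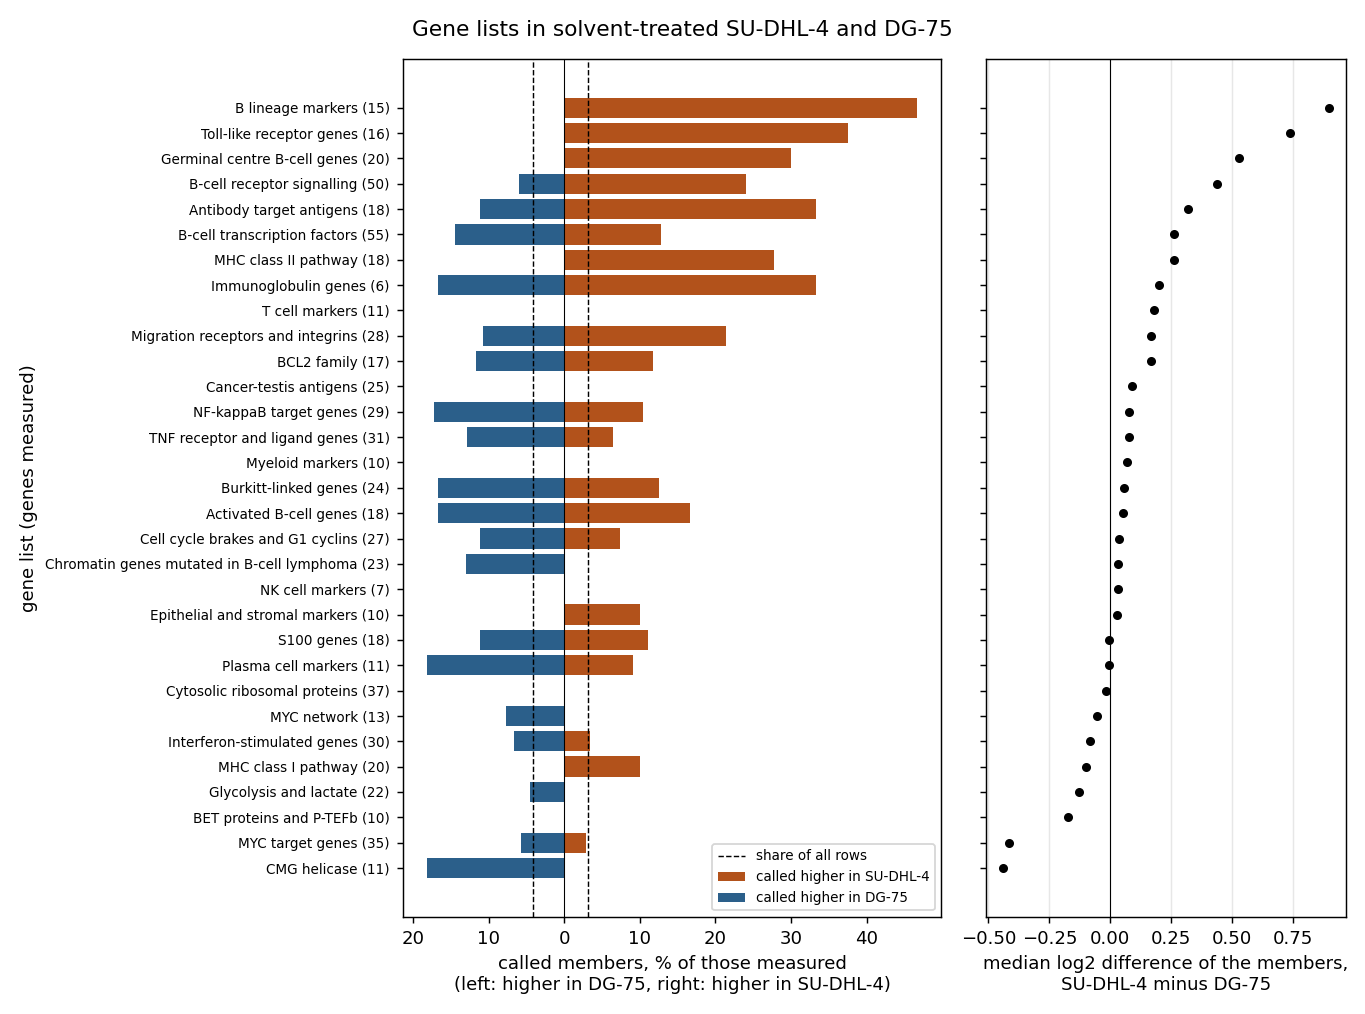
Bars give, for each of 31 gene lists, the percentage of measured members called higher in SU-DHL-4 (right) and called higher in DG-75 (left), with dashed lines at the shares over all rows, 3.12% and 4.13%. Points give the median log2 difference of each list. The B lineage list stands at the top with a median of 0.90 and the CMG helicase at the bottom with -0.44.

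B-cell receptor signalling was asked about because SYK is a target in the study. Of 50 genes measured, 12 were called higher in SU-DHL-4, and 3 lower, with a median of 0.44. SYK itself was at 9.06, 9.18 and 8.66 in SU-DHL-4 and at 8.76, 8.89 and 8.52 in DG-75, overlapping arrays with a difference of 0.25 and a limma adjusted p of 0.421. The kinases LYN and BTK differed by 0.70 (limma adjusted p = 0.00533) and 0.62 (limma adjusted p = 0.0153), below the fold minimum. Larger differences were found for other members. PRKCB, the protein kinase C isoform that links the receptor to NF-kB, was at 8.29, 8.31 and 7.20 in SU-DHL-4 and at 2.93, 3.24 and 2.70 in DG-75, a difference of 4.98. RASGRP1 and RASGRP3, which activate RAS, differed by 3.07 and 2.31. VAV3 and VAV2, exchange factors of RAC, differed by 2.44 and 1.58, and PIK3CG, a catalytic subunit of PI3-kinase, by 1.96.

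FCGR2B, the inhibitory Fc receptor, was at 8.81, 8.90 and 8.15 in SU-DHL-4 and at 3.04, 3.53 and 4.54 in DG-75, a difference of 4.92, with close copies in its family that may share probes. GAB1, an adaptor that brings PI3-kinase to receptors, went the other way. It was at 8.12, 8.54 and 7.63 in DG-75 and at 2.49, 2.54 and 3.48 in SU-DHL-4, a difference of -5.26 with an SE of 0.29. The SRC family kinase FGR differed by -1.28. Of 3 neighbouring genes of the Fc receptor-like family, which modulate the B-cell receptor, FCRL2 differed by 4.31, FCRL3 by 3.82 and FCRL1 by 2.49. They were named as a run of called genes.

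Innate receptors were compared next. Of 16 Toll-like receptor genes, 6 were called higher in SU-DHL-4 and 0 lower, with a median of 0.74. CD180, a Toll-like receptor homologue of B cells, was at 10.82, 11.19 and 10.40 in SU-DHL-4 and at 8.24, 7.10 and 8.27 in DG-75, a difference of 2.94. Its partner LY86 was at 9.81, 9.96 and 8.88 against 6.25, 4.92 and 6.86, a difference of 3.54, so both parts of this surface complex were higher on every SU-DHL-4 array. TLR7 and TLR9, sensors of RNA and DNA in endosomes, differed by 2.22 and 1.28. TLR4 and its partner LY96 differed by 1.46 and 1.41. With rows under the median level left out, the list had 3 calls.

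NF-kB target genes were called in both directions. Of 29 measured, 5 were called lower and 3 higher, with a median of 0.08. TNFAIP3, the deubiquitinase A20, was at 7.46, 7.77 and 7.04 in DG-75 and at 4.69, 4.83 and 6.0 in SU-DHL-4, a difference of -2.25. NFKBIA, the inhibitor that holds NF-kB in the cytoplasm, was at 9.52, 9.73 and 8.87 against 7.27, 6.87 and 7.92, a difference of -2.02. SU-DHL-4 replicate 3 was the highest of its line for both genes and still lay below DG-75. BIRC3, an inhibitor of cell death, differed by -1.75 and IRF4 by -2.24. NFKB2 differed by -1.16, and by -0.999 without SU-DHL-4 replicate 1 and -0.95 without DG-75 replicate 2, which ended its call. The genes called higher were REL, a subunit of NF-kB itself, by 1.33, CD40 by 1.46 and the BCL2 relative BCL2A1 by 1.24.

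Genes used to tell BL from DLBCL, by mutation or by expression, were compared because DG-75 is of the BL type. Of 24 measured, 3 were called higher in SU-DHL-4 and 4 lower, with a median of 0.06. MYC was at 10.02, 10.13 and 9.79 in DG-75 and at 9.34, 9.55 and 9.35 in SU-DHL-4, without overlap. The difference of -0.57 with a limma adjusted p of 0.0284 did not reach the fold minimum. TERT, the catalytic subunit of telomerase and a MYC target, was at 8.37, 8.52 and 7.70 in DG-75 and at 4.45, 4.43 and 4.59 in SU-DHL-4, a difference of -3.71. CCND3, the D cyclin of germinal centre B cells, differed by -1.51, the deubiquitinase USP7 by -1.5 and ID3 by -1.37. On the SU-DHL-4 side, the growth factor gene BMP7 differed by 2.62, the RNA helicase DDX3X by 2.05 and the transcription factor FOXO1 by 1.26. DDX3X was at 9.99, 10.31 and 10.15 in SU-DHL-4 against 8.39, 7.88 and 8.03.

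Of 35 MYC target genes measured, 1 was called higher in SU-DHL-4 and 2 lower, which is close to the shares over all rows. By contrast, 28 of the 35 differences were below 0, with a median of -0.41. All SU-DHL-4 arrays lay below all DG-75 arrays for 18 genes and above them for 4, against 17.2% and 16.1% of all rows. A limma adjusted p under 0.05 alone was reached by 14 genes, against 16.7% of all rows. The 2 called lower were TERT and TFRC, the transferrin receptor, which differed by -1.08. The call of TFRC was lost without SU-DHL-4 replicate 1 (-0.94) and without DG-75 replicate 1 (-0.92), and the fit without DG-75 replicate 1 left 1 call in the list. CCND2, a D cyclin, was the one called higher, by 1.00, and was not called without SU-DHL-4 replicate 3 or DG-75 replicate 1 (0.89 and 0.84). Of the 13 genes of the MYC network, MGA was the 1 called, with a difference of -1.02, and it kept the call in 2 of the 6 fits that left out 1 array. Without SU-DHL-4 replicate 1 or 2 or DG-75 replicate 1 or 3 it was at -0.99, -0.98, -0.91 and -0.99, and under quantile normalization at -0.95. The list then held 0 calls, except that another gene was called higher without DG-75 replicate 3 and under quantile normalization, and it held 2 calls without SU-DHL-4 replicate 3. The 11 genes of the CMG helicase, which unwinds DNA ahead of the replication fork, all had differences below 0, with a median of -0.44. GINS2, at -1.24, and CDC45, at -1.03, were called, and CDC45 was not called without SU-DHL-4 replicate 1 or 2 or DG-75 replicate 1 (-0.84, -0.98 and -0.99). The mean level of the helicase list was 8.11, 8.35 and 8.71 in SU-DHL-4 and 9.05, 8.90 and 8.86 in DG-75. The 37 cytosolic ribosomal protein genes, by contrast, gave 0 calls by limma, with a median of -0.02, a range of -0.27 to 0.15 and 0 genes at an unadjusted p under 0.05.

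Cell cycle brakes and G1 cyclins gave 2 calls higher in SU-DHL-4 and 3 lower among 27 genes. This is a share of 18.5% against 7.25% of all rows. The count of calls fell to 3 without DG-75 replicate 1. CDKN1B, the CDK inhibitor p27, differed by -1.49, and its arrays read 6.72, 5.58 and 7.0 in SU-DHL-4 and 7.73, 8.26 and 7.78 in DG-75. MDM2, the ligase that degrades p53, differed by -1.02, with no call without SU-DHL-4 replicate 1 (-0.93) or DG-75 replicate 1 (-0.97). RB1, the retinoblastoma protein, differed by 1.06, and by 0.94 without DG-75 replicate 2. Among the 17 genes of the BCL2 family, 2 were called in each direction, a share of 23.5% against 7.25% of all rows. BCL2 was at 8.23, 8.67 and 8.83 in SU-DHL-4 and at 5.69, 6.60 and 5.16 in DG-75, a difference of 2.76 with a limma adjusted p of 9.22e-05. The BH3-only genes BIK and BCL2L11, which promote cell death, were lower in SU-DHL-4, with differences of -2.38 and -1.32. MCL1 differed by 0.42 with an adjusted p of 0.0722.

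Transcription factors of B cells gave 7 calls higher in SU-DHL-4 and 8 lower among 55 measured. All 4 ID genes, whose products bind E proteins and keep them off DNA, were lower in SU-DHL-4. ID1 was at 9.52, 9.18 and 9.77 in DG-75 and at 3.79, 3.96 and 4.86 in SU-DHL-4, a difference of -5.29. ID2 was at 9.62, 9.96 and 9.47 against 7.74, 6.99 and 7.43, a difference of -2.30, and ID4 differed by -1.77. ID3, the member mutated in BL, had the smallest difference of the family, with 10.76, 10.51 and 10.87 in DG-75 against 9.47, 9.34 and 9.22. The E protein gene TCF4 differed by -1.33, while TCF3 differed by -0.61 (limma adjusted p = 0.0201). MYB, a factor of immature cells, differed by -2.10 and IKZF3, which encodes Aiolos, by -1.31. On the side of SU-DHL-4 were HHEX, by 2.29, BCL11A, by 2.04, MEF2A, by 1.47, and POU2F2, the B-cell octamer factor OCT2, by 1.38, beside EBF1 and FOXO1. POU2F2 stood at 0.93 without DG-75 replicate 2, the array on which it was lowest, and STAT5A, at 1.09, stood at 0.97 without DG-75 replicate 1. Neither was called in those fits.

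Of 23 chromatin genes mutated in B-cell lymphoma and related enzymes, 0 were called higher in SU-DHL-4 by limma and 3 lower, with a median of 0.03. Over all rows the shares were 3.12% higher and 4.13% lower, and the count of this short list was not tested against them. DNMT3B, which adds methyl groups to DNA, was at 7.8, 7.92 and 7.91 in DG-75 and at 5.13, 4.63 and 5.87 in SU-DHL-4, a difference of -2.67. TET2, which oxidises them, was at 6.92, 6.80 and 6.77 against 4.79, 4.71 and 4.81, a difference of -2.06, and TET1 differed by -1.74. All 3 genes were thus higher on every DG-75 array. The other DNA methyltransferases of the list were not called, with DNMT1 at 0.03 (limma adjusted p = 0.923) and DNMT3A at 0.23 (limma adjusted p = 0.548). The 10 BET and P-TEFb genes, which hold the targets of AZD, gave 0 calls by limma, against 7.25% of all rows. A list of 10 is too short to tell 0 calls from that share. All SU-DHL-4 arrays lay below all DG-75 arrays for 4 genes and above them for 0, against 17.2% and 16.1% of all rows. By limma, 5 genes had an unadjusted p under 0.05 and 1 an adjusted p under 0.05. The last was BRD2, at -0.48 with a limma adjusted p of 0.0416.

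Antigen presentation by MHC class II gave 5 calls higher in SU-DHL-4 and 0 lower among 18 genes, with a median of 0.26. The list had 6 higher and 1 lower without SU-DHL-4 replicate 3, and 5 higher and 1 lower without DG-75 replicate 2. HLA-DRB5 was at 11.12, 11.42 and 10.83 in SU-DHL-4 and at 6.77, 5.84 and 6.43 in DG-75, a difference of 4.78. This gene is present on some HLA haplotypes and absent from others, and its probes are shared in part with other DRB genes. CTSH, a cathepsin of the endosome, differed by 4.76, and HLA-DOB, which tunes peptide loading in B cells, by 2.78. HLA-DOA and HLA-DMB differed by 1.11 and 1.08, and both calls were lost without SU-DHL-4 replicate 2 (0.97 and 0.96), which left 3. HLA-DOA was also not called without DG-75 replicate 3 (0.995) and HLA-DMB without SU-DHL-4 replicate 1 (0.94). HLA-DRA, the alpha chain of HLA-DR, was at 12.29 and 12.27 on average, a difference of 0.02 with a limma adjusted p of 0.96. CIITA, the master activator of the class, differed by 0.44 with an adjusted p of 0.181.

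In the MHC class I list of 20 genes, TAP2, a peptide transporter, and HLA-E, a ligand of NK receptors, were called higher, by 1.11 and 1.02, and 0 genes were called lower, a share of 10% against 7.25% over all rows. Of the 20 differences 13 were below 0, with a median of -0.10, and the arrays of the lines did not overlap for 3 genes higher in SU-DHL-4 and 6 lower, against shares of 16.1% and 17.2% over all rows. Neither TAP2 nor HLA-E was called without SU-DHL-4 replicate 2 (0.95 and 0.94), and HLA-E was not called without SU-DHL-4 replicate 1 or DG-75 replicate 2 or 3 either (0.94, 0.95 and 0.97). B2M, the light chain of class I molecules, differed by -0.10 (limma adjusted p = 0.721). HLA genes vary between people, and the array's probes may match the alleles of the lines unequally.

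Receptors for migration and adhesion gave 6 calls higher in SU-DHL-4 and 3 lower among 28. CXCR5, which leads B cells into follicles, was at 8.49, 8.30 and 8.30 in SU-DHL-4 and at 5.21, 5.94 and 6.08 in DG-75, a difference of 2.62. CXCR4, which holds dividing cells in the dark zone of the germinal centre, was at 10.76, 11.36 and 10.83 in DG-75 and at 9.70, 9.34 and 9.78 in SU-DHL-4, a difference of -1.37. CXCR5 and CXCR4 were thus higher in different lines, and the list was not split by zone. The integrins ITGB7, ITGAL and ITGB1 were higher in SU-DHL-4, by 2.14, 1.52 and 1.29. CD58, the ligand of CD2 on T cells and NK cells, differed by -2.03 and CD9 by -1.54. CCR6 differed by 1.44 with an adjusted p of 0.0564 without SU-DHL-4 replicate 1. ICAM3 differed by 1.00 and was called in 2 of the 6 fits that left out 1 array. PECAM1, the 1 gene called among 10 epithelial and stromal markers, is also made by blood cells and differed by 2.25. This share of 10% is near the 7.25% of all rows.

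Interferon-stimulated genes varied within DG-75 as well as between the lines. Of 30 measured, 1 was called higher in SU-DHL-4 and 2 lower, with a median of -0.08, and this share of 10% is near the 7.25% of all rows. DG-75 replicate 3 stood apart from the other DG-75 arrays, with a mean over the list of 6.31 against 5.57 and 5.36, while SU-DHL-4 ranged from 5.53 to 5.68. IFI44L was at 6.83 on that array and at 3.04 and 2.36 on the other DG-75 arrays, with 1.56, 2.14 and 1.90 in SU-DHL-4, and its difference of -2.21 had a limma adjusted p of 0.114, and of 0.0408 with a replicate block. The difference of IFI44L was -0.83 without DG-75 replicate 3 (limma adjusted p = 0.0374), below the fold minimum, and -3.06 without DG-75 replicate 2 (limma adjusted p = 0.0349), which is a call. IFI44 was called, at -2.29, and at -1.54 without that array. The called difference of IFITM1, -1.90, had DG-75 arrays at 9.67, 9.66 and 9.70 and SU-DHL-4 arrays at 7.71, 8.24 and 7.38. OAS1 differed by 1.27 and lost its call without SU-DHL-4 replicate 1 or 2 or DG-75 replicate 1 or 2 (adjusted p from 0.0639 to 0.0816). What set the array apart was not tested.

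For both remaining lists the counts are read against the 7.25% of all rows. The 25 cancer-testis antigens gave 0 by limma, with differences between -0.70 and 0.61 and 4 genes at an unadjusted p under 0.05. Among 22 genes of glycolysis and lactate transport, the lactate exporter SLC16A3 was called, at -1.17, with adjusted p of 0.0502 without SU-DHL-4 replicate 1 and 0.0666 without DG-75 replicate 1. The list had 2 calls without SU-DHL-4 replicate 2 or DG-75 replicate 3, and its median was -0.13.

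Some differences lay in runs of neighbouring genes. In the order of the RefSeq table (GRCh38.p14), 19 runs of at least 3 neighbouring protein-coding genes were all called in 1 direction, and the longest held 5. One of these was RAVER2, JAK1, AK4, DNAJC6 and LEPR, with differences of -5.94, -1.08, -4.45, -4.15 and -2.54. JAK1 is a kinase of cytokine receptors, AK4 a mitochondrial adenylate kinase, DNAJC6 the auxilin of clathrin uncoating and LEPR the leptin receptor. The other was CMSS1, FILIP1L, TBC1D23, NIT2 and TOMM70, with differences of -1.62, -2.53, -1.29, -1.05 and -1.68, of which NIT2 was at -0.98 without DG-75 replicate 1. CMSS1 and FILIP1L overlap in the genome. In SU-DHL-4 the fatty acid desaturase genes FADS1, FADS2 and FADS3 were higher together, by 2.02, 1.97 and 3.06, as were the FCRL genes. In DG-75 the NK receptor genes KLRC3 and KLRC2 were higher, by differences of -3.73 and -3.72, next to KLRC4-KLRK1 at -2.64, and the copies of this family share sequence. THEM4, S100A10 and S100A11 formed a run as well, with THEM4 at -3.37. Copy number was not measured here.

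These differences were then followed in the same lines under inhibitors, on arrays that the DMSO comparison did not use. The labels give these arrays the same replicate numbers and do not say whether they share cultures with the DMSO arrays. Rows chosen for a difference above 1 tend to keep their sign, and same-sign counts over all rows are not given. What follows is thus a description. Between the lines, 2030 rows (7.94%) were called under Ento, 1665 rows (6.51%) under AZD and 1844 rows (7.21%) under Ento+AZD. Of the 1853 rows called under DMSO, 1852 had the same sign under Ento, 1841 under AZD and 1842 under Ento+AZD. They were called again in the same direction in 1567 (84.6%), 1351 (72.9%) and 1376 (74.3%) cases, and 0 were called by limma in the opposite direction. In turn, 77.2%, 81.1% and 74.6% of the calls under Ento, AZD and Ento+AZD had been called under DMSO. All 4 comparisons called 1160 rows, 501 higher in SU-DHL-4 and 659 lower, with a median absolute difference of 1.93. A further 146 rows were called under DMSO and in none of the others, with a median absolute difference of 1.08, near the fold minimum.

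Single genes are given side by side over these groups. MGST1 differed by -8.58 under Ento, -7.94 under AZD and -8.48 under Ento+AZD. MAPK10 differed by 6.71, 6.88 and 7.40, SERPINA9 by 6.19, 6.20 and 6.35, and ID1 by -6.11, -6.06 and -6.25. MS4A1 differed by 4.97, 3.72 and 3.94, BCL2 by 2.84, 2.64 and 2.77 and PRKCB by 5.84, 5.27 and 6.16. Smaller differences of the B lineage list, such as that of CD37, were at 0.94, 0.45 and 0.46. The change of the line difference was tested over all 24 arrays for the named genes, with limma adjustment over all rows, and it was called for NRG4 and S100A13 under Ento+AZD. NRG4 differed by -6.40 under Ento, -5.18 under AZD and -4.20 under Ento+AZD, so the last was 2.14 nearer 0 than under DMSO (SE 0.29, limma adjusted p = 0.0126). S100A13 differed by 1.80, 0.78 and 0.69, a change of -1.74 under Ento+AZD (SE 0.26, limma adjusted p = 0.0126), which was not called without the replicate block (limma adjusted p = 0.182). MUC19 went from 5.47 under DMSO to 3.10 under Ento+AZD, a change of -2.37 with a limma adjusted p of 0.0777.

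**Figure D5:**
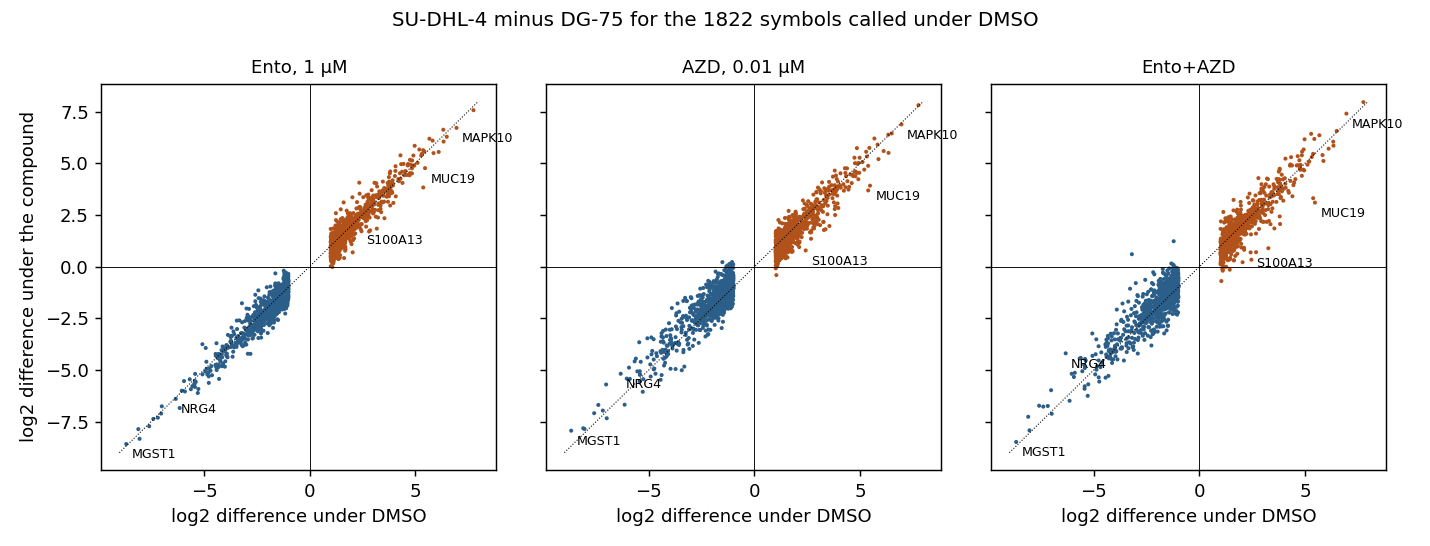
Each point is a gene symbol called under DMSO, with its log2 difference between SU-DHL-4 and DG-75 under DMSO on the horizontal axis and under Ento, AZD or Ento+AZD on the vertical axis. The dotted line marks equal differences. Nearly all points keep their side of 0, and NRG4 and S100A13 lie nearer 0 under Ento+AZD, at -4.20 and 0.69, the change of S100A13 being called with the replicate block and not without it.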

How the data were processed

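The arrays were Clariom D human arrays of biological triplicates, with replicate numbers from the labels. Per the labels and the study's methods, the authors deposited log2 values made by RMA with limma and mapped probes to genes with affycoretools and an annotation package. The genome build and versions are not given in the sources used here. Every column was assigned to a sample by name, which left 0 unused.

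Lines were compared in R 4.3.3 with limma 3.58.1 (lmFit and eBayes, default settings) on the 6 DMSO arrays, with line as the single term and 4 residual degrees of freedom. P-values were adjusted by Benjamini-Hochberg over 25575 rows. The study's methods name a batch term without defining it. The treated arrays were fitted in the same way. Changes of the line difference were fitted on all 24 arrays with replicate number within line as a block.

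Of 25161 symbols, 315 had several rows, and the row with the highest mean stands for the symbol. 24636 symbols were current in the RefSeq table, 331 were synonyms and 194 were unmatched. Promoters were matched by symbol, with the first listed start where several were listed. Genes were named if they belonged to 1 of 31 lists, or were among the 15 per direction with the largest called, non-overlapping difference, leaving out Y-linked genes and symbols of the LOC, LINC, MIR, SNOR, RNU and antisense kinds, so that other non-coding genes and pseudogenes could enter. Members of a run of neighbouring called genes were named after their values were seen. Members and lists were chosen with earlier results of these data known. Some members of the lists are not reported here. No list was tested. P-values measure the spread between the arrays of each line. RMA compresses large differences. The scripts were tested on simulated data. Alternatives were another model or normalization, a low-level filter, other thresholds, 1 row per symbol and omission of each array.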

Additional observations from a re-analysis of the deposited data

Results flagged for a closer look

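The difference between the lines changed between DMSO and Ento+AZD for NRG4 and S100A13, by limma's test of the change over all 24 arrays. It was not called under Ento (adjusted p = 0.9995 for both) or AZD (adjusted p = 0.316 for NRG4 and 0.156 for S100A13). For NRG4 the line difference was -6.33 under DMSO and -4.20 under Ento+AZD, a change of 2.137 (SE 0.293, limma adjusted p = 0.0126 with the replicate block and 0.00566 without it). For S100A13 it was 2.42 and 0.69, a change of -1.737 (SE 0.26, limma adjusted p = 0.0126 with the block and 0.182 without it).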

How the results depend on the processing

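The count of 1853 called rows lay between 1317 (rows under the median level left out) and 2388 (the treat test of limma for differences above 1.2-fold) under the alternatives that kept a fold minimum, and the share higher in SU-DHL-4 between 37.6% and 46.3%. Without a fold change minimum it was 4278. It was 1864 with a replicate block, which ended no call of a named gene and added IFI44L. Same-numbered arrays of the lines deviated from their group means with correlations of -0.0049 to -0.026, and no array correlated best with its own number. Across genes the numbers thus showed no pairing of the arrays. Correlations over all rows cannot exclude a shared batch that acts on few genes. Leaving out 1 array gave 1732 to 1957 calls under DMSO, 1879 to 2226 under Ento, 1547 to 1703 under AZD and 1690 to 1954 under Ento+AZD. The count of 2 named genes whose line difference changed under an inhibitor was 1 without the replicate block, an alternative added after seeing the data. HLA-DRA turned sign at differences near 0, with -0.0212 under quantile normalization and -0.0541 to 0.115 over the fits without 1 array, below 0 without SU-DHL-4 replicate 1 or 2 or DG-75 replicate 2. Of the named called genes, 21 lost the call in at least 1 fit that left out 1 array. An additive model over all 24 arrays ended 16 named calls, among them CD79B (0.86), IGLL5 (-0.79) and LY96 (0.91). It called 7 interferon-stimulated genes in place of 3. The cause was not tested.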
